A study of Mus musculus with 11 samples.

Results

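Mouse brain tumors driven by overexpressed PDGFB were set against normal mouse brain across the transcriptome, by bulk RNA sequencing of 4 tumors and 3 normal brains. These are 7 of the 11 libraries of the series, and they were chosen by their labels alone. By the series text, newborn FVB mice received plasmids into the right lateral ventricle, carrying Sleeping Beauty transposase (an enzyme that inserts plasmid cargo into the genome), firefly luciferase, SV40 large T antigen and PDGFB, and tumors were taken at the middle stage of their growth. The other 4 libraries are tumors in which an activated NRAS took the place of PDGFB beside the same transposase, luciferase and large T. They share the fit of the spread and are named only where PDGFB tumors were compared with them directly. All PDGFB tumors therefore carry large T as well as PDGFB and the normal brains are labelled wild type, so the parts of the 2 oncogenes cannot be told apart in the comparison with normal brain. The strain field reads B6 for the 4 PDGFB tumors and for normal brains 1 and 2 and FVB for normal brain 3, which goes against the series text for 6 of the 7 libraries. Normal brain 3 is labelled as the match of PDGFB tumor 1. Tissue was dissected under GFP goggles, which separate fluorescent tumor from a dark, tumor-free region, and no brain region or age at sampling is given. No label says whether each library came from a separate animal, so each p-value reflects only how far these libraries varied, which may be partly technical.

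PDGFB is a secreted growth factor that acts as a dimer on 2 receptor tyrosine kinases, PDGFRA and PDGFRB, which signal through RAS and the MAP kinases and through PI3 kinase. In the brain PDGFRA marks the oligodendrocyte progenitor, the dividing glial cell that gives rise to myelinating oligodendrocytes, and PDGF is a mitogen for it. SV40 large T binds and blocks the retinoblastoma family and p53, the proteins that hold back entry into the cell cycle. Normal brain is mostly post-mitotic neurons, astrocytes, myelinating oligodendrocytes, microglia and vessels. In bulk samples fewer cells of a type and less RNA per cell cannot be told apart.

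Expression is given in FPKM (fragments per kilobase of transcript, scaled to the mapped fragments of the library). The number of reads per library is unknown, and the smallest value steps put the depth of the 7 libraries between 0.776 and 0.886 of the deepest library of the series. They detected 12705 to 13493 genes at 1 FPKM or more, and genes of small RNAs took 11.2 to 42.7% of the summed FPKM. Pearson correlations of log2(FPKM + 1) over genes were 0.929 to 0.979 among the PDGFB tumors, 0.972 to 0.978 among the normal brains and 0.698 to 0.824 between them. PDGFB tumor 2 stood apart, with correlations of 0.698 to 0.710 with the normal brains against 0.793 to 0.824 for the other 3, and it was the only PDGFB tumor that expressed Y-linked genes, as normal brains 1 and 2 also did. The titles' sample numbers run from 1834 to 1837 in the normal brains and from 2038 to 2046 in the PDGFB tumors, so whatever such a number series stands for cannot be told apart from the tumor effect within these 7 libraries. The NRAS tumors have numbers of both series.

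The driver itself was far above normal brain in every tumor. Pdgfb (chr15:79995865-80024614, GRCm38.p6) stood at 1030.1, 1564, 904 and 745 FPKM across PDGFB tumors 1 to 4 and 6.88, 6.12 and 7.19 FPKM across normal brains 1 to 3. The lowest tumor was 104 times the highest normal brain on the FPKM scale, and the groups did not overlap (log2 fold change of PDGFB tumors over normal brain, on the log2(FPKM + 1) scale, 7.05 ± 0.22 SE, limma adjusted p = 2.36e-08). Against NRAS tumors, which had received no PDGFB plasmid, the difference was as large (7.16 ± 0.20, adjusted p = 1.34e-08). Reads from the plasmid and from the mouse gene cannot be told apart in these gene-level values.

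The 2 receptors of PDGFB differed. Pdgfra (chr5:75151322-75198206) stood at 271, 322, 280.1 and 176 FPKM across PDGFB tumors 1 to 4 and 16.2, 15.9 and 15.2 FPKM across normal brains 1 to 3, with the lowest tumor 10.9 times the highest normal brain (log2 fold change 3.94 ± 0.36, adjusted p = 1.49e-05). Pdgfrb, the receptor of pericytes, stood at 10.3, 4.08, 9.73 and 8.78 FPKM across PDGFB tumors 1 to 4 and 5.54, 6.81 and 6.13 FPKM across normal brains 1 to 3. PDGFB tumor 2 was the lowest of all 7 libraries and the other 3 tumors the highest, so the groups overlapped and the difference did not pass the test (log2 fold change 0.30 ± 0.27, adjusted p = 0.361). Without PDGFB tumor 2 it did (adjusted p = 0.0277). Among the other ligands of the family, Pdgfa, the main PDGFRA ligand of normal brain, fell from 27.8, 27.6 and 26.3 FPKM in normal brains 1 to 3 to 14.1, 13.1, 22.1 and 17.6 FPKM in the tumors (log2 fold change -0.70 ± 0.20, adjusted p = 0.0103). With the series of title numbers as a covariate its call was lost (-0.86, adjusted p = 0.0699). Pdgfd, a ligand of PDGFRB, fell from 2.08, 3.37 and 2.36 to 0.496, 0.772, 0.735 and 1.15 FPKM (log2 fold change -1.01 ± 0.37, adjusted p = 0.0367), a call that was lost without any 1 library other than PDGFB tumor 4, with adjusted p between 0.0564 (without normal brain 1) and 0.123 (without normal brain 2). The Pdgfd call was also lost without a filter on low values (adjusted p = 0.0516), with quantile normalization (0.0606) and with sex as a covariate (0.0866). Pdgfc did not pass the test (log2 fold change -0.37 ± 0.20, adjusted p = 0.132).

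Most of the transcriptome differed between PDGFB tumors and normal brain. Of 14491 genes with at least 1 FPKM in at least 3 of the 11 libraries, 8470 passed an adjusted p of 0.05 (58.5%), of which 4240 were higher in the tumors (29.3% of those tested) and 4230 lower (29.2%). The 4 tumors and the 3 normal brains did not overlap for 9527 genes (65.7%). A difference of at least 2-fold was reached by 2056 higher and 2427 lower genes, and one of at least 4-fold by 627 and 696. The median log2 fold change of all genes tested was 0.04, and by chromosome the median ran from -0.03 to 0.11. When the series of title numbers entered as a covariate, a term that only the NRAS tumors could set, 2463 genes were higher and 2305 lower.

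**Figure D1:**
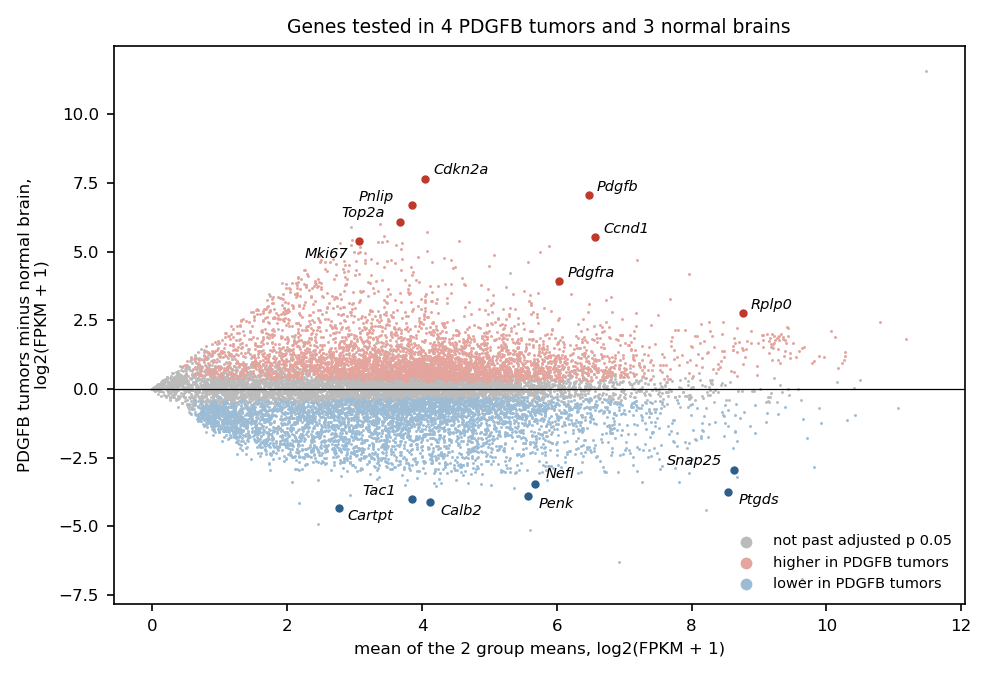
Each point is 1 of the 14491 genes tested, with the mean of its 2 group means of log2(FPKM + 1) on the horizontal axis and the log2 fold change of PDGFB tumors over normal brain on the vertical axis. Called genes are coloured by direction, and the named genes include Pdgfb and Cdkn2a among the rises and Cartpt and Tac1 among the falls.

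The largest rises among well-expressed genes were those of the driver, of cell-cycle inhibitors and of cell division. Cdkn2a, which encodes the p16 and p19ARF inhibitors of cell-cycle entry, stood at 175, 349, 188 and 256 FPKM across PDGFB tumors 1 to 4 and 0, 0.104 and 0.413 FPKM across normal brains 1 to 3 (log2 fold change 7.66 ± 0.35, adjusted p = 3.55e-07). All 3 normal brains were under 1 FPKM, and PDGFB tumor 2 was the highest. Pnlip, the pancreatic lipase, stood at 101, 122, 165 and 223 FPKM in the tumors and at 0.0547, 0.213 and 1.29 FPKM in the normal brains (log2 fold change 6.68 ± 0.70, adjusted p = 3.73e-05) and was also higher than in NRAS tumors (4.97 ± 0.65, adjusted p = 7.21e-04). The remaining members of the 12 largest rises were Ccnd1, the chromatin gene Hmgb2, the mitotic kinase gene Pbk and the division genes Top2a, Ccnb1, Ube2c, Cdk1, Prc1 and Mki67, with log2 fold changes between 5.38 and 6.09 for the last 6.

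The largest falls among genes that passed the test were mostly in genes of differentiated neurons or of other resident brain cells. Neuropeptide precursor genes led them: Cartpt (-4.32), Pmch (-4.13), Tac1 (-4.01) and Penk (-3.89), together with the calcium-binding interneuron gene Calb2 (-4.12) and the serotonin receptor gene Htr2c (-3.86). Pmch, made by neurons of the lateral hypothalamus, stood at 0, 0.230, 0.115 and 0 FPKM in the tumors and 58.6, 1.95 and 37.9 FPKM in the normal brains. All 4 tumors were near 0, while the highest normal brain was 30.01 times the lowest. Rph3a and Nefl of the synaptic vesicle and the axonal cytoskeleton, Scn4b, Gda, Tmem130 and Ptgds, the prostaglandin D synthase of meninges and oligodendrocytes, made up the rest of the 12, between -3.75 (Ptgds) and -3.46 (Nefl).

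Genes were also grouped by the stem of their symbol, with no chosen list. Of the 243 symbol families with at least 8 tested genes, the highest median log2 fold changes belonged to Mcm, the replicative helicase (3.59, 9 of 10 higher), to Cdkn, the cyclin-dependent kinase inhibitors (2.34), to Haus, the augmin complex of the mitotic spindle (2.09, 8 of 8), and to Rpl, the large ribosomal subunit (1.53, 47 of 47). The lowest belonged to Syt, the calcium sensors of vesicle release (-2.24, 12 of 16 lower), to Cpne (-2.07), to the voltage-gated calcium channels Cacna (-2.07, 9 of 11), to the ephrin receptors Epha (-1.93, 7 of 8) and to the sodium channels Scn (-1.91, 9 of 10). The G-protein regulators Rgs (12 of 18 lower, 0 higher) and the serotonin receptors Htr (9 of 11 lower, 0 higher) had no member that rose.

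Transcripts that MAP kinase signalling is known to induce were raised together. Of the MAPK output and feedback genes, 19 of 19 listed members passed the expression filter, 16 of them rose and 0 fell, beside 29.3% higher and 29.2% lower among all genes, with a median log2 fold change of 1.30 against 0.04 for all genes. Ccnd1, the cyclin D1 gene that links growth factors to the cell cycle, stood at 619, 524, 813 and 636 FPKM across PDGFB tumors 1 to 4 and 14.5, 12.8 and 11.8 FPKM across normal brains 1 to 3. The lowest tumor was 36.2 times the highest normal brain (log2 fold change 5.52 ± 0.31, adjusted p = 1.04e-06). The ETS factor gene Etv4 stood at 54.7, 58.9, 64.0 and 58.6 FPKM in the tumors and 4.55, 3.85 and 4.21 FPKM in the normal brains, with the 4 tumors close to each other (log2 fold change 3.53 ± 0.25, adjusted p = 3.72e-06). Myc (3.97 ± 0.30), the receptor-feedback genes Spry1 (3.84 ± 0.27) and Spry4 (3.44 ± 0.21) and Phlda1 (3.25 ± 0.16) rose as well. Spred2, Fosl1 and Etv1 were the 3 members that did not pass, and Spred2 did without PDGFB tumor 4 (adjusted p = 0.0021). Fosl1 did with a pseudocount of 0.1 and with only the libraries of the 2 groups compared (limma adjusted p 0.00354 to 0.0271). Of the 19 members, 1 passed the filter only with the NRAS tumors, and 1 was under 1 FPKM in all 7 libraries compared.

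**Figure D2:**
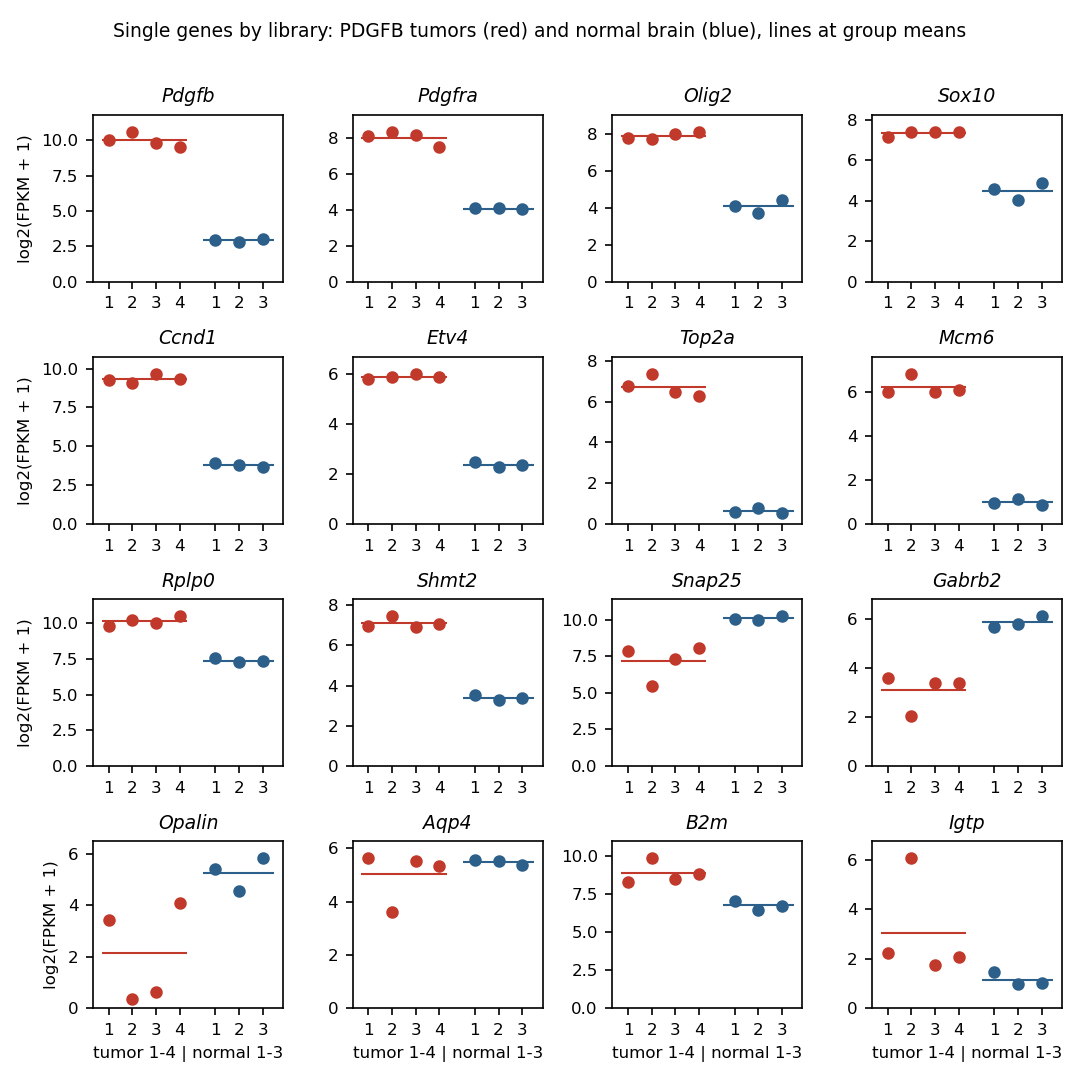
Each panel is 1 gene, with FPKM on a log2(FPKM + 1) axis for the 4 PDGFB tumors and the 3 normal brains, each point 1 library and the bar the group mean. Pdgfb, Pdgfra, Ccnd1, Top2a and Rplp0 separate the groups without overlap, Aqp4 overlaps, and Opalin and Igtp scatter widely among the 4 tumors.

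Markers of the oligodendrocyte progenitor rose in the tumors. 21 of 21 listed markers passed the filter, 15 rose and 1 (0 without normal brain 3) fell (median 2.46). Olig2 (chr16:91225550-91228677), the basic helix-loop-helix factor that specifies the lineage, stood at 219, 214, 255 and 283 FPKM across PDGFB tumors 1 to 4 and 16.3, 12.4 and 20.5 FPKM across normal brains 1 to 3. The highest tumor was 1.32 times the lowest, and the lowest tumor 10.4 times the highest normal brain (log2 fold change 3.82 ± 0.51, adjusted p = 1.59e-04). Cspg4, the gene of the NG2 surface proteoglycan, stood at 60.3, 69.7, 64.7 and 45.5 FPKM in the tumors and 2.73, 2.90 and 3.43 FPKM in the normal brains (log2 fold change 3.91 ± 0.42, adjusted p = 4.30e-05). Olig1 (3.27 ± 0.46), Sox10 (2.84 ± 0.42), Sox6 (2.63 ± 0.38) and Ptprz1 (2.31 ± 0.51) followed. The exception was the sialidase gene Neu4 (-1.43 ± 0.43, adjusted p = 0.015), whose call was lost without normal brain 3 (adjusted p = 0.0609). Gpr17, Bcas1 and Tnr, genes of the committed precursor stage, were among the 5 markers that did not pass, at 0.60, 0.55 and 0.47. Gpr17 did pass with only the libraries of the 2 groups compared (adjusted p = 0.0421). Bcas1 did with the series of title numbers as a covariate (adjusted p = 0.0377). The direct comparison with NRAS tumors, in which 12.2% of all genes were higher in PDGFB tumors and 14.3% lower, had 15 of the 21 markers higher, Cspg4 by 2.77 ± 0.39 (adjusted p = 0.00103) and Olig2 by 2.08 ± 0.48 (adjusted p = 0.00942).

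The SOX transcription factors, which share a DNA-binding domain and mark successive stages of the neural lineage, moved in both directions. 16 of 19 passed the filter, 9 rose and 3 (1 without PDGFB tumor 2 or normal brain 2 or 3) fell. The progenitor members Sox2 (2.23), Sox3 (3.13), Sox4 (2.18) and Sox11 (2.30) rose beside Sox6 and Sox10, while Sox1 (-1.83), expressed in early neuroectoderm and some adult neurons, fell. None of the 39 listed HOX genes, which pattern the hindbrain and spinal cord, reached the filter.

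Neural progenitor genes were split. 20 of 20 passed the filter, 10 rose and 4 fell (median 0.61). The intermediate filament genes Nes (4.27 ± 0.13) and Vim (4.68 ± 0.24) and the radial glial lipid carrier gene Fabp7 rose most. Fabp7 stood at 761, 956, 1151 and 1578 FPKM in the tumors and 66.4, 62.3 and 45.6 FPKM in the normal brains, lowest in PDGFB tumor 1 and without overlap (log2 fold change 4.20 ± 0.56, adjusted p = 1.51e-04). The interneuron-progenitor factors Dlx1 (-2.03) and Dlx2 (-1.47) and the Notch effector Hes5 (-1.36) fell. In the Notch pathway, 7 of 20 tested members rose and 4 fell, beside 29.3% higher and 29.2% lower among all genes. The share that rose was thus little above that of all genes, and the share that fell was below it. The receptor gene Notch1 (1.56), the ligand gene Dll3 (2.18) and the effector Hes1 (2.27) were higher, and Hes5 and the ligand gene Jag2 (-1.73) lower. The call of Hes5 was lost with the series of title numbers as a covariate (-0.23, adjusted p = 0.691).

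Signature genes of human glioblastoma subtypes rose from each of the 3 lists. The proneural list had 11 of 20 tested members higher and 4 lower, with Tcf12 (2.31) and the Notch ligand gene Dll3 among the former and the neuronal genes Mapt (-1.57) and Gabra3 (-1.62) among the latter. The classical list had 9 of 16 higher and 4 lower, with Ccnd2 (3.43) and Gas1 (2.03) higher and Fgfr3 (-1.87) lower. Egfr, the receptor that defines the classical subtype, did not pass the test (-0.33 ± 0.20, adjusted p = 0.18). The mesenchymal list had 17 of 27 higher and 0 (1 without PDGFB tumor 1) lower, led by Vim, Timp1 (4.37), Lgals1 (2.72) and Cd44 (2.68). Compared directly with NRAS tumors, 10 (5 without PDGFB tumor 3 or NRAS tumor 4, 6 without NRAS tumor 3) of the 20 proneural genes were higher in PDGFB tumors and 22 of the 27 mesenchymal genes were lower. The shares of all genes in that comparison were 12.2% higher and 14.3% lower.

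Genes of DNA replication and mitosis rose almost without exception. All 37 of the 37 listed replication genes that passed the filter rose (median 2.99, lowest 0.83), as did 41 of the 42 mitosis genes of 42 listed (median 4.18). In the normal brains the mean log2(FPKM + 1) was 1.83 to 1.88 for the replication list and 0.742 to 0.839 for the mitosis list. Members that are low in normal brain could pass the filter through the tumors, so the counts are no more than a description. Top2a (chr11:98992947-99024199), the topoisomerase that untangles chromosomes before they part, stood at 106, 164, 88.7 and 77.0 FPKM across PDGFB tumors 1 to 4 and 0.513, 0.708 and 0.437 FPKM across normal brains 1 to 3. All normal brains were under 1 FPKM, and the lowest tumor was 109 times the highest of them (log2 fold change 6.09 ± 0.40, adjusted p = 2.24e-06). The helicase subunit gene Mcm6 stood at 63.5, 114, 62.9 and 66.9 FPKM in the tumors and 0.948, 1.21 and 0.835 FPKM in the normal brains (log2 fold change 5.24 ± 0.38, adjusted p = 4.05e-06), and the ribonucleotide reductase gene Rrm2, which supplies deoxynucleotides, rose by 5.32 ± 0.30. PDGFB tumor 2 was the highest of the 4 for Top2a, Mcm6 and Rrm2. The exception in the mitosis list was Anln, an actin-binding cytokinesis gene also expressed in oligodendrocytes, at 16.4, 21.6, 11.1 and 11.7 FPKM in the tumors and 10.8, 10.8 and 12.3 FPKM in the normal brains (adjusted p = 0.569). Compared directly with NRAS tumors, Mki67 was higher in PDGFB tumors by 1.71 ± 0.35 (adjusted p = 0.00567). In that comparison 15 of the 42 mitosis genes and 3 of the 37 replication genes were higher in PDGFB tumors and 0 lower. Among all genes 12.2% were higher and 14.3% lower. The mitosis list means overlapped, at 4.81 to 5.39 in the PDGFB tumors and 3.21 to 4.89 in the NRAS tumors.

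The promoters of these genes are shown because the genes moved together and the 2 lists hold different short motifs. RefSeq promoters on GRCm38.p6 cover the 250 bases before to the 50 after a transcription start, and 34 of the 42 mitosis genes and 29 of the 37 replication genes were matched by symbol, giving 35 and 33 promoter windows of 300 bases. CCAAT, searched on both strands like the other motifs, was in 24 of the 35 mitosis windows (68.6%), in 19 of the 33 replication windows (57.6%) and in 37.4% of all 32851 promoter windows. TTTGAA, the core of the cell-cycle homology element, was in 26 of 35 mitosis windows (74.3%), 4 of 33 replication windows (12.1%) and 17.9% of all. TTTGGCGC or TTTCCCGC, spellings of the E2F site, was in 3 of 35 mitosis windows (8.57%), 11 of 33 replication windows (33.3%) and 1.56% of all. A match is a run of letters and no measurement of binding, and no factor binding was measured. The 250 bases before the start are given 5′ to 3′ on the strand of each gene for 2 mitosis genes, with CCAAT and TTTGAA or their reverse complements ATTGG and TTCAAA in capitals, and for 2 helicase genes, with TTTGGCGC, TTTCCCGC or their reverse complements in capitals.
Top2a, chr11:99024190-99024439, minus strand: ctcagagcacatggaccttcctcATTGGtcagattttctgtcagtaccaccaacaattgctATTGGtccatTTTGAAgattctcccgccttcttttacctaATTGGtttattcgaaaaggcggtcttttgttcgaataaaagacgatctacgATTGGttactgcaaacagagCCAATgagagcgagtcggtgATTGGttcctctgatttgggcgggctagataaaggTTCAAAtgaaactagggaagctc
Ube2c, chr2:164769679-164769928, plus strand: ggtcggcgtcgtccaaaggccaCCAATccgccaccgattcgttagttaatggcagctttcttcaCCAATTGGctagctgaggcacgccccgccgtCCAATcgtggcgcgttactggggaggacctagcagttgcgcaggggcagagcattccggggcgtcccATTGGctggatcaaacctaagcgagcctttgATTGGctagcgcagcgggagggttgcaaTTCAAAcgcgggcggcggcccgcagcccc
Mcm6, chr1:128359706-128359955, minus strand: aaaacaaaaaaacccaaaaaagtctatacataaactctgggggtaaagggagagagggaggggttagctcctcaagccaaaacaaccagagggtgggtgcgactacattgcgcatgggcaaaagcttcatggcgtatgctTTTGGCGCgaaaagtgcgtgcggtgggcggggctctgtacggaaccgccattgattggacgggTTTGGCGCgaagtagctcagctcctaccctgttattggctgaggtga
Mcm5, chr8:75109259-75109508, plus strand: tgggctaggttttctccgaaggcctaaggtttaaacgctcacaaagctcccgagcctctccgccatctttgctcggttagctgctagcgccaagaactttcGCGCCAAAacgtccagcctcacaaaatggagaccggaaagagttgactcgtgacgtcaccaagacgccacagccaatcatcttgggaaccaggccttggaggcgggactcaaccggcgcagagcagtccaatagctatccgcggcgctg
Top2a and Ube2c, at 6.09 and 5.73 on the log2 scale, held 6 CCAAT each, with the nearest TTTGAA 23 and 29 bases before the start respectively. Mcm6 and Mcm5, at 5.24 and 4.44, held 2 and 1 of the E2F-like runs. The genes shown were picked by fold change among list members whose single promoter window holds these motifs before the start. That they hold them was therefore fixed by the choice and says nothing about the lists or the fold changes.

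Both the motors and the brakes of the cell cycle rose. Of the cyclins, cyclin-dependent kinases and their inhibitors, with the retinoblastoma and E2F families, 26 of 26 passed the filter, 20 rose and 0 fell. Cdkn2b, the p15 gene beside Cdkn2a, stood at 60.8, 66.6, 70.3 and 68.8 FPKM in the tumors and 0.825, 0.804 and 0.361 FPKM in the normal brains, with the tumors close to each other (log2 fold change 5.36 ± 0.40, adjusted p = 4.74e-06). Cdkn2c (p18) rose by 4.34 ± 0.25 and Cdkn1a (p21), the best known p53 target, by 3.78 ± 0.39. Cdk2 (3.56) and Ccnd2 (3.43) rose with them. Of the p53 targets, 11 of 20 tested rose and 3 fell (median 0.97), with Eda2r (2.87), Sesn2 (2.29), Gdf15 (1.99) and Bax (1.92) higher and Rrm2b (-0.99) lower. In DNA repair, 31 of 32 tested genes of 32 listed rose and 0 fell (median 1.83), led by the replication-checkpoint genes Clspn (3.73), Timeless (3.27) and Chek1 (3.04) and the recombination genes Rad51ap1 (3.34) and Rad54l (3.29). Xrcc3 was the exception (0.10 ± 0.16, adjusted p = 0.606).

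**Figure D3:**
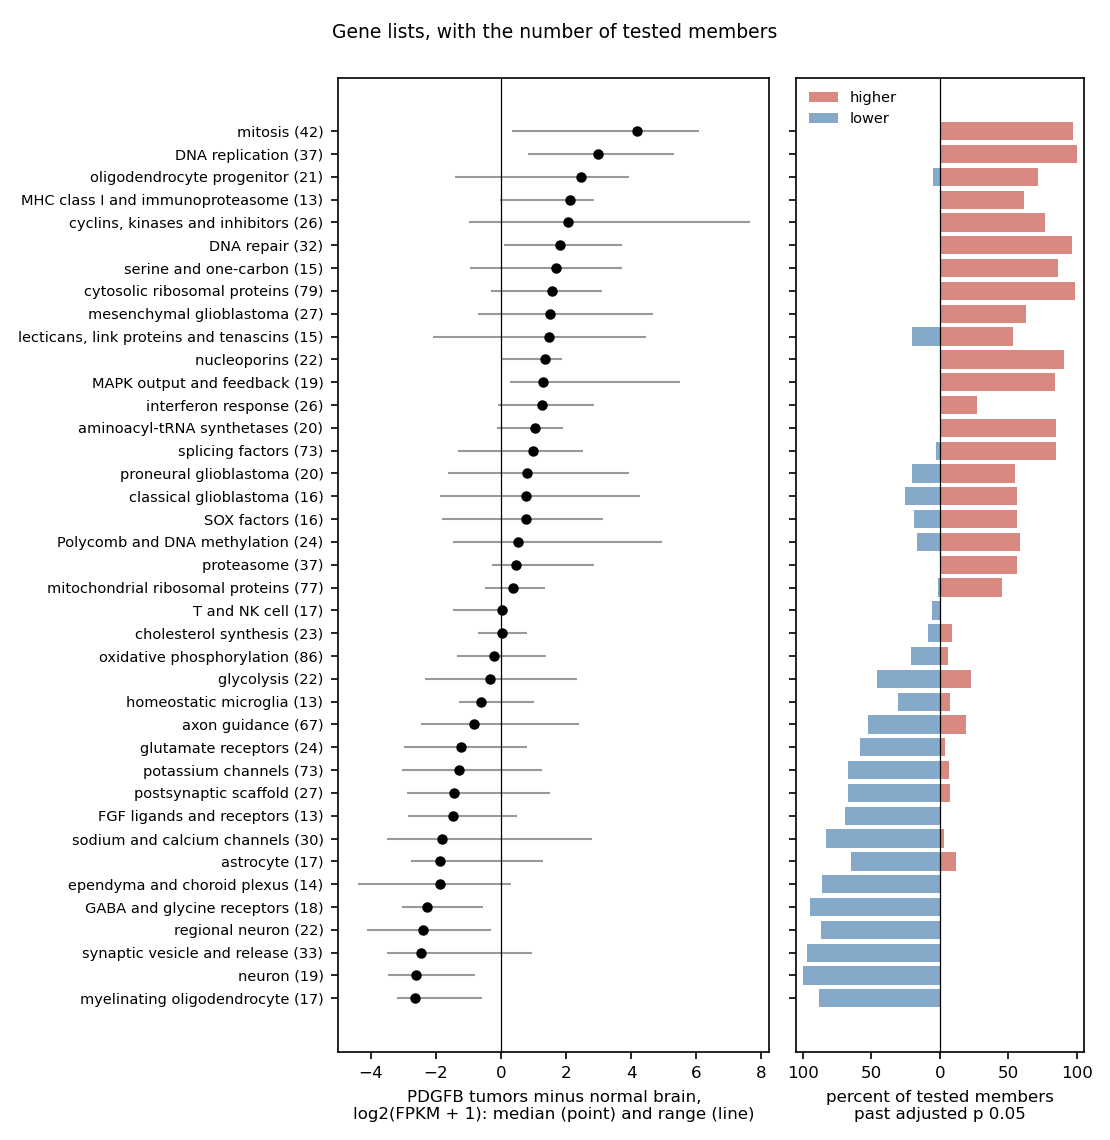
Each row is 1 gene list, with its number of tested members. In the left panel a point marks the list median of the log2 fold change of PDGFB tumors over normal brain. A line runs from the lowest to the highest member. In the right panel bars give the percent of tested members called higher and lower. Mitosis (median 4.18) and DNA replication (2.99) lie at 1 end. The myelinating oligodendrocyte (-2.65) and neuron (-2.63) lists lie at the other, with oxidative phosphorylation near 0.

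The protein-making apparatus was higher in the tumors. Of the cytosolic ribosomal protein genes, 79 of 82 passed the filter and 78 rose (median 1.58, range of all members -0.32 to 3.09). Rplp0, of the ribosomal stalk, stood at 876, 1200.5, 1035 and 1467 FPKM across PDGFB tumors 1 to 4 and 184, 153 and 162 FPKM across normal brains 1 to 3. The lowest tumor was 4.76 times the highest normal brain (log2 fold change 2.76 ± 0.28, adjusted p = 3.10e-05). Rps27 was the member that did not pass, at 3.04, 4.88, 4.67 and 3.35 FPKM in the tumors and 4.57, 6.69 and 4.37 FPKM in the normal brains (adjusted p = 0.747), while its paralog Rps27l had the largest rise (3.09 ± 0.24). With the series of title numbers as a covariate Rps27 was higher in the tumors and passed (adjusted p = 0.000419). Ribosomal proteins have many near-identical pseudogene copies, and the counting may have split reads among them. Initiation factors (29 of 38 higher, 3 lower), aminoacyl-tRNA synthetases, which charge tRNAs (17 of 20 higher, 0 lower), splicing factors (62 of 73 higher, 2 lower) and nucleoporins (20 of 22 higher, 0 lower) moved the same way. Their leading members were Eif2s2 (1.67), Lars (1.91), Hnrnpf (2.53) and Nup43 (1.89). Hnrnpf, an RNA-binding splicing regulator, stood at 275, 390.4, 279.9 and 275 FPKM in the tumors and 49.98, 48.4 and 55.7 FPKM in the normal brains, highest in PDGFB tumor 2 and without overlap (log2 fold change 2.53 ± 0.21, adjusted p = 8.31e-06). The splicing factors that fell were Srsf12 (-1.31) and Prpf40b (-0.69), and the initiation factors that fell were Eif4e3 (-1.32), Eif5a2 (-1.25) and Eif4a2 (-0.93).

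Mitochondrial and proteasome genes had medians closer to 0. Of 77 tested mitochondrial ribosomal protein genes, 35 (18 without normal brain 2, 20 without normal brain 3) rose (median 0.36). Of 37 tested proteasome genes 21 (10 without normal brain 2, 13 without normal brain 3) rose (median 0.45). Oxidative phosphorylation had 5 (3 without PDGFB tumor 2, 2 without PDGFB tumor 3 or 4 or normal brain 2 or 3) of 86 tested members higher and 18 (11 without PDGFB tumor 2 or 3, 39 without PDGFB tumor 4, 8 without normal brain 1, 10 without normal brain 3) lower (median -0.23), led downward by the tissue-restricted cytochrome oxidase subunit genes Cox8b (-1.36) and Cox7b2 (-1.23). PDGFB tumor 4 differed from the other 3 here, with a list mean 0.24 above the normal mean on the log2 scale, against -0.38, -0.34 and -0.32 in tumors 1 to 3.

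Serine and one-carbon metabolism, which feeds nucleotide synthesis, was raised. 13 of 15 tested members rose and 0 (1 without PDGFB tumor 4) fell (median 1.71). Shmt2, the mitochondrial serine hydroxymethyltransferase, stood at 124, 176, 119 and 133 FPKM across PDGFB tumors 1 to 4 and 10.6, 8.63 and 9.28 FPKM across normal brains 1 to 3, with the lowest tumor 11.3 times the highest normal brain (log2 fold change 3.71 ± 0.24, adjusted p = 2.35e-06). Its partners Mthfd2 (3.29 ± 0.23), Shmt1 (3.53 ± 0.35), Aldh1l2 (3.55 ± 0.38) and the serine synthesis gene Psph (2.27 ± 0.24) rose too. Glycolysis genes were divided, 5 of 22 higher and 10 lower. The monocarboxylate exporter gene Slc16a3 (2.35), Hk2 (1.91) and Ldha (1.14) rose, while the neuronal and astrocytic forms Eno2 (-2.34) and Aldoc (-2.03) and the muscle-type Pfkm (-1.18) fell. Of the hypoxia genes 7 of 15 rose and 2 (4 without PDGFB tumor 4) fell, Adm (2.54) and Vegfa (1.06) among the former and Ndrg1 (-2.52) and Car12 (-2.04) the latter. Cholesterol synthesis genes had 2 (1 without PDGFB tumor 3 or 4 or normal brain 2) of 23 higher and 2 (1 without PDGFB tumor 1 or 2 or normal brain 1, 0 without normal brain 3) lower (median 0.04), and their largest rise was Acat2 (0.80).

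Several pairs of paralogs changed in opposite directions. Ezh2, the histone H3 lysine methyltransferase of Polycomb complexes in dividing cells, stood at 31.8, 50.1, 33.6 and 34.9 FPKM across PDGFB tumors 1 to 4 and 2.61, 2.55 and 2.31 FPKM across normal brains 1 to 3 (log2 fold change 3.45 ± 0.32, adjusted p = 1.63e-05). Ezh1, its counterpart in resting cells, stood at 5.95, 5.21, 5.48 and 5.58 FPKM in the tumors and 16.4, 20.3 and 15.2 FPKM in the normal brains, with the 4 tumors close to each other (log2 fold change -1.47 ± 0.16, adjusted p = 4.36e-05). Actl6a, the SWI/SNF remodelling subunit of progenitors, rose (2.40 ± 0.24) and its neuronal counterpart Actl6b fell (-2.93 ± 0.60). The Polycomb reader Cbx2 rose (1.42 ± 0.27) and Cbx7 fell (-1.45 ± 0.19). Hk2 rose and Hk1 fell (-0.92), Ldha rose and Ldhb fell (-0.97), and of the helicases of translation initiation Eif4a1 rose (1.54) and Eif4a2 fell (-0.93). These 6 pairs were chosen after their values were seen. Over the lists, 14 of 24 Polycomb and DNA methylation genes rose and 4 fell, with Uhrf1 (4.95 ± 0.34) and Dnmt1 (2.43 ± 0.27), which maintain DNA methylation at replication forks, among the rises, and 9 of 19 SWI/SNF and SMARC genes rose and 3 fell.

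**Figure D4:**
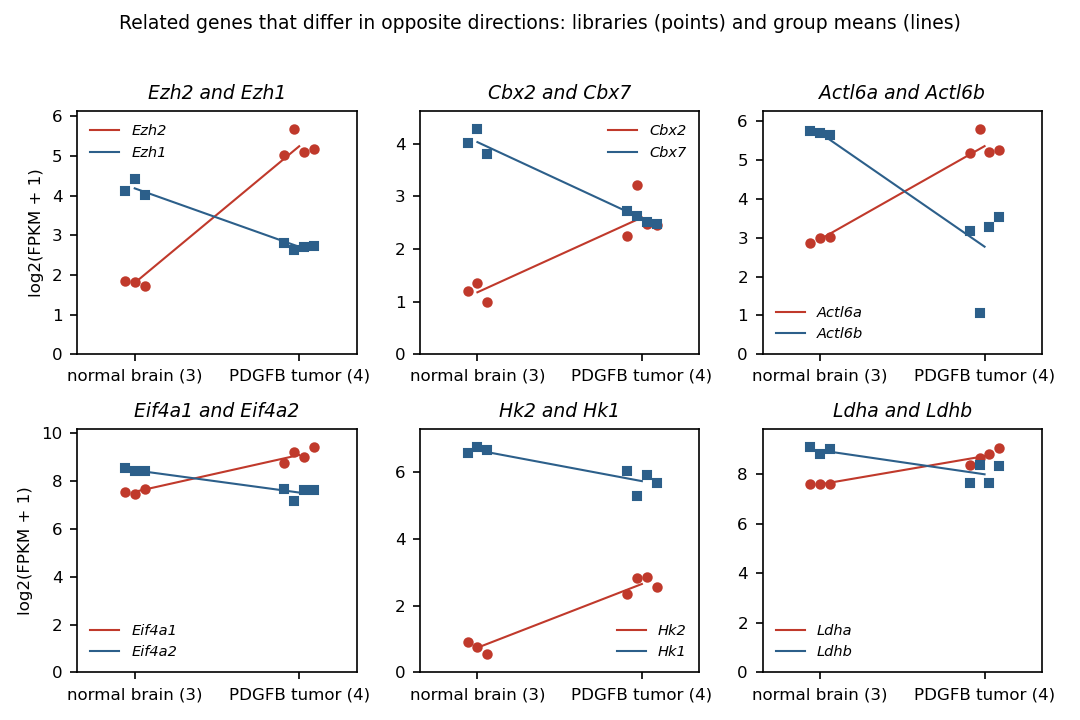
Each panel is 1 pair of paralogs, with log2(FPKM + 1) of both genes in each of the 4 PDGFB tumors and the 3 normal brains. The first gene of each pair (Ezh2, Cbx2, Actl6a, Eif4a1, Hk2, Ldha) is higher and the second (Ezh1, Cbx7, Actl6b, Eif4a2, Hk1, Ldhb) lower in every tumor than in every normal brain.

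Genes of the extracellular matrix and of its remodelling contained some of the largest rises. Of the matrix proteases and their inhibitors 21 of 42 tested rose and 10 fell. Mmp15, a membrane-anchored metalloproteinase, stood at 307, 263, 363 and 284 FPKM across PDGFB tumors 1 to 4 and 9.59, 6.64 and 9.73 FPKM across normal brains 1 to 3. The lowest tumor was 27.0 times the highest normal brain (log2 fold change 4.99 ± 0.58, adjusted p = 6.97e-05), and Mmp15 was also higher than in NRAS tumors (3.36 ± 0.54, adjusted p = 0.00182). Mmp10 (stromelysin) stood at 26.8, 17.2, 37.5 and 38.3 FPKM in the tumors and was at or near 0 in the normal brains (log2 fold change 4.84 ± 0.30, adjusted p = 1.81e-06). The inhibitor gene Timp1 (4.37 ± 0.30) and Adam12 (3.87 ± 0.44) rose, and the neuronal, catalytically inactive Adam11 (-2.42) and Adam23 (-1.86) fell. Tnc (tenascin C, a matrix glycoprotein of germinal zones and gliomas) stood at 61.8, 69.8, 87.8 and 50.4 FPKM in the tumors and 1.63, 1.88 and 2.80 FPKM in the normal brains (log2 fold change 4.45 ± 0.26, adjusted p = 1.11e-06). The lecticans, link proteins and tenascins had 8 of 15 higher and 3 lower, the fall being in link protein genes of perineuronal nets and nodes, Hapln1 (-1.89) and Hapln2 (-2.10) among them.

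Collagens and laminins had 14 of 44 tested members higher (31.8%, near the 29.3% of all genes) and 8 (5 without normal brain 2) lower (18.2%, beside 29.2%). Of these 44 genes, 6 passed the filter only with the NRAS tumors. The basement membrane gene Col18a1 (3.25) and Col16a1 (3.12), Lama4 (2.92) and Col3a1 (2.54) rose, and the neuronal transmembrane collagen Col25a1 (-3.15) fell. Integrins had 9 of 22 higher (40.9%) and 2 lower (9.09%), with the shared beta subunit Itgb1 (2.57) and its partners Itga1 (2.72), Itga8 (2.66) and Itgav (2.19) higher. Of the 22 integrins, 4 passed the filter only with the NRAS tumors, and 4 were under 1 FPKM in all 7 libraries compared. Glypicans and syndecans, carriers of heparan sulfate, had 5 of 12 higher and 3 lower (median 0.07), with Sdc1 (3.36) and Gpc2 (1.88) the highest. In the insulin-like growth factor axis 4 of 12 genes rose (33.3%, near the share of all genes) and 2 fell (16.7%). The binding proteins Igfbp3 (4.61), Igfbp7 (2.12) and Igfbp2 (2.08) rose and the ligands Igf1 (-1.14) and Igf2 (-3.23) fell. Igf2, which in adult brain comes mostly from meninges and choroid plexus, stood at 4.43, 1.10, 4.12 and 9.26 FPKM in the tumors and 39.2, 59.3 and 40.0 FPKM in the normal brains, lowest in PDGFB tumor 2 (log2 fold change -3.23 ± 0.58, adjusted p = 8.40e-04).

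Among the other growth factor pathways, fibroblast growth factor genes fell in the main, while TGF-beta, BMP and WNT genes had shares of calls near those of all genes or under them. The fibroblast growth factor ligands and receptors had 0 (1 without normal brain 2) of 13 tested members higher and 9 lower (median -1.47), with Fgf13 (-2.86), Fgf14 (-2.29) and Fgf9 (-2.01) and the receptor genes Fgfr2 (-1.89) and Fgfr3 (-1.87) among the falls. TGF-beta and BMP genes had 10 of 39 higher and 13 lower (25.6% and 33.3%, beside 29.3% and 29.2%), Bmp7 (2.17) and Smad5 (1.72) against Id4 (-2.62). WNT genes had 6 of 31 higher and 8 (5 without normal brain 3) lower (19.4% and 25.8%), the antagonist Sfrp2 (2.26) and the receptors Fzd1 (1.91) and Ror2 (1.59) against the ligands Wnt4 (-1.56) and Wnt9a (-1.48). Of the 31 WNT genes, 4 passed the filter only with the NRAS tumors. In the Hedgehog pathway 5 (3 without PDGFB tumor 1 or 4 or normal brain 2, 2 without PDGFB tumor 2 or normal brain 1 or 3) of 11 tested genes fell and 3 rose (median -0.43). The transcriptional output gene Gli1 (-1.44) was the lowest of the falls, and the rises were Gas1 (2.03), Smo (0.92) and Sufu (0.74). Axon guidance genes had 13 of 67 higher and 35 lower (median -0.84), with Ntn1 (2.39) and Sema3d (2.22) higher and Slit1 (-2.46), Robo2 (-2.34) and the ephrin receptors Epha4 (-2.40), Epha7 (-2.39) and Epha10 (-2.36) lower.

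Genes of neurons were lower in the tumors. 19 of 19 listed neuron markers passed the filter, and all 19 of them fell (median -2.63), while 19 of 22 markers of particular neuron types fell and 0 rose. The normal brains expressed these markers at high levels. Snap25, the membrane part of the vesicle fusion machine, stood at 228, 43.3, 155 and 265 FPKM across PDGFB tumors 1 to 4 and 1035, 1010.2 and 1236 FPKM across normal brains 1 to 3. The lowest normal brain was 3.81 times the highest tumor, and PDGFB tumor 2 was the lowest of all (log2 fold change -2.93 ± 0.66, adjusted p = 0.00293, and -2.96, adjusted p = 0.0676 with the title number term). Nefl, the light neurofilament, showed the same order of groups at 26.4, 7.82, 9.09 and 22.1 FPKM in the tumors and 187, 144 and 178 FPKM in the normal brains (log2 fold change -3.46 ± 0.46, adjusted p = 1.54e-04). Markers of striatal neurons (Drd2 (-3.32)), of glutamatergic neurons (Slc17a6 (-3.27)) and of GABAergic neurons (Gad2 (-2.93), Slc32a1 (-2.89)) fell. Prox1 and Npy did not pass, at -0.32 and -0.98.

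Genes of the synapse were lower too. Of the genes of synaptic vesicles and release 32 of 33 tested fell and 0 (1 without PDGFB tumor 4) rose (median -2.45), the exception being Sv2c (0.94 ± 0.55, adjusted p = 0.164, and 0.0106 without PDGFB tumor 4). Rph3a, a vesicle-docking effector, stood at 14.5, 2.63, 7.73 and 16.7 FPKM in the tumors and 106, 92.8 and 130.0 FPKM in the normal brains, again lowest in PDGFB tumor 2 (log2 fold change -3.50 ± 0.66, adjusted p = 0.00108). Postsynaptic scaffolds had 2 (1 without normal brain 1) of 27 higher and 18 lower, Camk2a (-2.90), Dlg2 (-2.72) and Shank1 (-2.43) among the falls and Homer3 (1.52) a rise. GABA and glycine receptor subunits had 17 of 18 lower and 0 higher (median -2.28). Gabrb2, a beta subunit gene, stood at 10.9, 3.06, 9.52 and 9.53 FPKM in the tumors and 49.5, 53.7 and 68.8 FPKM in the normal brains, lowest in PDGFB tumor 2 (log2 fold change -2.76 ± 0.50, adjusted p = 8.40e-04). Gabrg1, a subunit of glia and some neurons, was the exception (-0.54 ± 0.32, adjusted p = 0.175).

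Glutamate receptor genes fell in part. 14 of 24 tested fell and 1 (0 without PDGFB tumor 3 or normal brain 3, 2 without PDGFB tumor 4) rose (median -1.24). The AMPA receptor gene Gria1 fell from 101, 143 and 74.3 FPKM in the normal brains to 20.2, 8.26, 12.03 and 10.6 FPKM in the tumors (log2 fold change -2.98 ± 0.47, adjusted p = 3.95e-04), while Gria2, Gria3 and Gria4, subunits that oligodendrocyte progenitors also express, did not pass, at -0.48, -0.49 and -0.17. The metabotropic receptors Grm2 (-2.47), Grm3 (-2.62) and Grm7 (-2.37) fell. In the direct comparison 11 (7 without PDGFB tumor 1 or NRAS tumor 4, 6 without PDGFB tumor 3 or NRAS tumor 3) of the 24 glutamate receptors were higher in PDGFB than in NRAS tumors, beside 12.2% of all genes.

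Voltage-gated channels were lower in the main. Potassium channel genes had 5 of 73 tested higher and 49 lower (median -1.30), with Kcnip2 (-3.03), Kcnab1 (-2.99) and Kcnj3 (-2.81) lowest and the leak channel Kcnk10 (1.27) and Kcnip3 (1.20) among the rises. Sodium and calcium channel genes had 1 higher and 25 of 30 lower (median -1.82). The single rise was Cacng4 (2.80 ± 0.47), which is also in the oligodendrocyte progenitor list, and the largest falls were Scn4b (-3.51) and Scn2b (-2.97). Clustered and other protocadherins had 7 of 63 higher (11.1%, beside 29.3% of all genes) and 18 lower (28.6%, near the 29.2% of all genes). Within the gamma cluster Pcdhgc3 rose (2.17 ± 0.23) and Pcdhgc5 fell (-1.81 ± 0.47).

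Markers of mature glia fell with those of neurons. Of the myelinating oligodendrocyte markers 15 (9 without PDGFB tumor 2 or 3, 7 without normal brain 1, 5 without normal brain 3) of 17 tested fell and 0 rose (median -2.65). Opalin, an oligodendrocyte membrane protein gene, stood at 9.90, 0.275, 0.553 and 16.1 FPKM across PDGFB tumors 1 to 4 and 41.7, 22.5 and 56.7 FPKM across normal brains 1 to 3. PDGFB tumors 2 and 3 were far below tumors 1 and 4, the highest normal brain was 2.52 times the lowest, and the groups did not overlap (log2 fold change -3.14 ± 0.92, adjusted p = 0.0124, and -3.01, adjusted p = 0.159 with the title number term).

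Astrocyte markers were divided. 2 (1 without PDGFB tumor 1, 3 or 4 or normal brain 1, 2 or 3) of 17 tested rose and 11 fell (median -1.87). Slc6a11, a GABA transporter of astrocytes, stood at 21.1, 6.04, 10.04 and 25.2 FPKM in the tumors and 144, 82.9 and 80.0 FPKM in the normal brains, lowest in PDGFB tumor 2 (log2 fold change -2.77 ± 0.50, adjusted p = 8.41e-04, and -2.08, adjusted p = 0.0734 with the title number term). The gap junction genes Gja1 (-2.33) and Gjb6 (-2.41) and the glutamate transporter Slc1a2 (-2.16) fell. Aqp4, the water channel of astrocyte endfeet, stood at 49.0, 11.1, 44.9 and 39.1 FPKM in the tumors and 45.8, 44.8 and 41.0 FPKM in the normal brains, where PDGFB tumor 1 was above the normal brains, tumor 3 among them, tumor 4 just below and tumor 2 well below (log2 fold change -0.46 ± 0.42, adjusted p = 0.368). Without PDGFB tumor 2 the log2 fold change was 0.01. Gfap, the astrocyte filament, stood at 394, 96.1, 396 and 494 FPKM in the tumors and 135, 126 and 103 FPKM in the normal brains, above all normal brains in 3 tumors and below all of them in PDGFB tumor 2 (log2 fold change 1.28 ± 0.49, adjusted p = 0.0429). Its call was lost without any 1 of the other 6 libraries, with adjusted p between 0.0748 (without normal brain 1) and 0.121 (without normal brain 3). The call was also lost without a filter on low values (adjusted p = 0.0638), with median-of-ratios scaling (0.0504) and with sex as a covariate (0.101). The same held with only the 2 groups compared (0.0612), after rescaling without small RNA genes (0.0622) and with the replicate block (0.0776).

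Ependymal and choroid plexus markers fell for 12 of 14 tested, Kl (-2.43) and Enpp2 (-2.17) among them, and none rose. Endothelial markers had 6 of 18 higher (33.3%) and 5 lower (27.8%), shares near the 29.3% and 29.2% of all genes. Angpt2, an angiopoietin of sprouting vessels, stood at 16.5, 20.9, 16.9 and 14.7 FPKM in the tumors and 1.15, 0.641 and 1.52 FPKM in the normal brains (log2 fold change 3.13 ± 0.57, adjusted p = 8.75e-04), and the tip-cell genes Esm1 (1.79) and Apln (1.32) rose. The blood-brain barrier transporter genes Slco1a4 (-2.14) and Abcb1a (-1.46) fell, Slco1a4 to 3.38, 1.26, 1.85 and 3.66 FPKM from 11.4, 14.3 and 16.5 FPKM. The general endothelial genes Pecam1 and Cdh5 did not pass, at 0.43 and 0.08. Pecam1 passed as higher with only the libraries of the 2 groups compared and as lower with the title number term (adjusted p 0.0114 to 0.0352). Pericyte and smooth muscle markers had 4 (2 without PDGFB tumor 1 or normal brain 2 or 3) of 12 higher and 3 lower (33.3% and 25.0%), also near those shares, Mcam (2.33) against Vtn (-1.84).

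Lymphocyte markers were near 0 in these 7 libraries, while microglia and macrophage markers were detected. Of the homeostatic microglia markers 1 (2 without PDGFB tumor 2) of 13 rose and 4 (2 without normal brain 3) fell, Sall1 (1.01) against P2ry13 (-1.06) and Slc2a5 (-0.74), with Cx3cr1 and Tmem119 not passing at -0.62 and -0.51. Of the monocyte and macrophage markers 4 (2 without normal brain 1, 1 without normal brain 3) of 19 rose and 1 (0 without normal brain 2) fell. These shares were 21.1% and 5.26%, beside 29.3% and 29.2% of all genes. Of the 17 T and NK cell markers tested, 16 passed the expression filter only with the NRAS tumors, and 14 were under 1 FPKM in all 4 PDGFB tumors and all 3 normal brains, so their calls describe neither group. The defining chains Cd3e and Cd8a were at 0.0531, 0.104, 0.0524 and 0.101 and 0.0229, 0.0675, 0.0226 and 0.0219 FPKM in the 4 tumors. All 3 B cell markers tested, 4 of 9 MHC class II genes and 5 of 19 monocyte and macrophage markers also passed only with the NRAS tumors.

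Genes of antigen presentation by MHC class I and of the interferon response were highest in PDGFB tumor 2. The MHC class I and immunoproteasome list had 8 (5 without PDGFB tumor 2 or normal brain 1, 4 without normal brain 2 or 3) of 13 tested members higher (61.5%, beside 29.3% of all genes) and 0 lower (median 2.13). H2-K1, a class I heavy chain, stood at 44.1, 251, 60.1 and 80.7 FPKM across PDGFB tumors 1 to 4 and 14.01, 9.71 and 11.2 FPKM across normal brains 1 to 3. PDGFB tumor 2 was far above the other tumors, and all tumors were above all normal brains (log2 fold change 2.79 ± 0.75, adjusted p = 0.00804). With the series of title numbers as a term its call was lost (1.16, adjusted p = 0.44). The interferon response list had 7 of 26 higher (26.9%, near the 29.3% of all genes) and 0 lower (median 1.25), with Irgm1 (2.87), Ifit2 (2.31) and Gbp3 (2.25) leading. All 3 lost their calls with the title number term, Irgm1 at 1.29, adjusted p = 0.314, Ifit2 at 1.68, adjusted p = 0.0553 and Gbp3 at 0.23, adjusted p = 0.862. Of the 26 genes, 6 passed the filter only with the NRAS tumors. Igtp, an interferon-induced GTPase, stood at 3.70, 67.0, 2.40 and 3.15 FPKM in the tumors and 1.79, 0.947 and 1.03 FPKM in the normal brains, so that PDGFB tumor 2 alone was far above the rest and the difference did not pass (adjusted p = 0.142). Marker lists of immune cells were summed beside these genes, and their part in the result was not tested. The summed level of the T and NK cell list was 1.86 to 4.65 FPKM in the tumors and 5.001 to 9.47 FPKM in the normal brains, and that of the monocyte and macrophage list 125 to 158 FPKM and 41.6 to 51.8 FPKM.

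Among chemokines 4 of 26 tested rose and 2 fell. The monocyte attractant Ccl2 stood at 7.22, 14.5, 9.96 and 11.96 FPKM in the tumors and 0.228, 0 and 0.349 FPKM in the normal brains (log2 fold change 3.29 ± 0.65, adjusted p = 0.00144), and Ccl12 (2.52) and Ccl11 (2.44) rose as well. With the title number term Ccl2 (1.12, adjusted p = 0.248) and Ccl11 (1.92, adjusted p = 0.0892) lost their calls. Of the 26 chemokines tested 11 passed the filter only with the NRAS tumors. Cxcl12, made by neurons, vessels and meninges (-2.73 ± 0.56), and the neuronal Cx3cl1 (-2.16 ± 0.54) fell. In the complement list 6 of 17 rose and 2 fell (35.3% and 11.8%, beside 29.3% and 29.2% of all genes), and 5 of the 17 passed the filter only with the NRAS tumors. C4b, a classical-pathway component, stood at 18.0, 31.9, 15.0 and 15.4 FPKM in the tumors and 2.39, 3.21 and 2.73 FPKM in the normal brains, highest in PDGFB tumor 2 (log2 fold change 2.42 ± 0.39, adjusted p = 4.22e-04, and 1.66, adjusted p = 0.0552 with the title number term), and the complement-regulator genes Cd55 (-1.32) and Cd59a (-1.84) fell.

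The 2 largest symbol families that hold many functions are given for scale. Of the zinc finger protein genes named Zfp, 95 of 332 tested rose (28.6%, near the 29.3% of all genes) and 41 fell (12.3%, beside 29.2%). Of the solute carriers 56 of 256 rose (21.9%) and 96 fell (37.5%).

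The 4 tumors lay close together in the oligodendrocyte progenitor list and further apart in the neuron, myelin and MHC class I lists. Relative to the normal mean of each list's mean log2(FPKM + 1), the oligodendrocyte progenitor list was 2.18, 2.14, 2.21 and 1.90 in tumors 1 to 4. The neuron list was -1.94, -3.74, -2.46 and -1.90, and the mitosis list 4.10, 4.60, 4.02 and 4.02. PDGFB tumor 2 had the lowest neuron, astrocyte and microglia lists and the highest mitosis, MHC class I and interferon lists of the 4. The myelin list was -1.22 and -0.96 in tumors 1 and 4 and -3.56 and -3.44 in tumors 2 and 3. What these lists' levels share with the amount of resident brain tissue in each dissected piece was not tested.

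**Figure D5:**
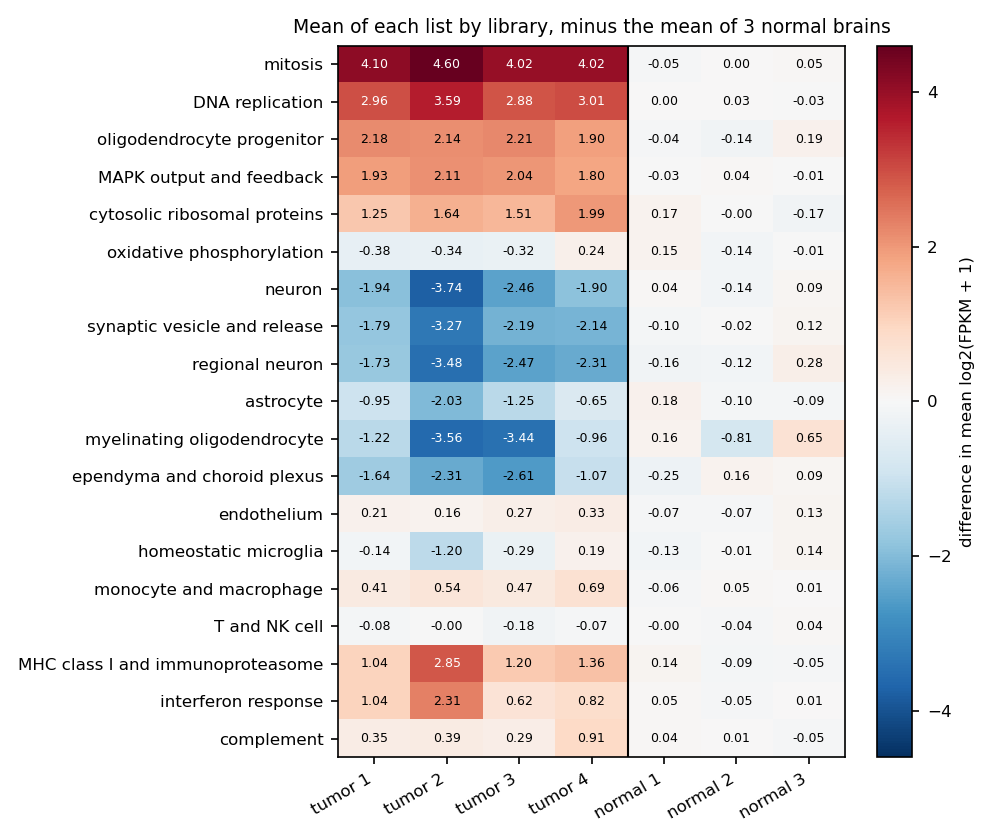
Each cell is the mean log2(FPKM + 1) of a gene list in 1 library, as the difference from the mean of the 3 normal brains, with the 4 PDGFB tumors and the 3 normal brains as columns. The mitosis and replication lists are high in all 4 tumors, the neuron and synaptic lists low in all 4, and the myelin list is low in tumors 2 and 3 (-3.56 and -3.44).

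The genes that varied most among the 4 tumors were of several kinds. By the SD of log2(FPKM + 1) over the 4 tumors, the choroid plexus gene Ttr was first, followed by the sex-linked Xist and Eif2s3y, and the myelin genes Mog and Mal and the interferon-induced Igtp were among the first 12, as were the pseudogene Atp6v0c-ps2, the mucin-like gene Glycam1 and the neuronal activity gene Npas4. Ttr, the thyroid hormone carrier, stood at 236, 81.2, 0.126 and 798 FPKM across PDGFB tumors 1 to 4 and 811, 2002 and 1595 FPKM across normal brains 1 to 3. PDGFB tumor 3 was near 0 and PDGFB tumor 4 just under the lowest normal brain, and the difference did not pass (log2 fold change -4.41 ± 1.90, adjusted p = 0.0657), except with quantile normalization (adjusted p = 0.0437), with the replicate block (0.0442) or without PDGFB tumor 4 (0.0258).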

How the data were processed

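RNA sequencing libraries of 4 PDGFB tumors, 3 normal brains and 4 NRAS tumors are held in 1 table with a row per gene symbol. The values are FPKM, deposited by the authors, and per the submitters' processing notes reads went through TopHat2 2.0.13 and Cufflinks 2.2.1 on mm10. The sources used here do not give strand handling, multi-mapped reads or read totals, so the absolute depth is unknown. Of 24347 rows, 27 whose symbols had turned into dates were left out. Groups were taken from the labels. limma 3.58.1 (R 4.3.3) was run on log2(FPKM + 1), which understates changes of low genes, for 14491 genes with at least 1 FPKM in at least 3 of the 11 libraries, with a mean for each of the 3 groups in 1 fit, moderated variances with a trend, and Benjamini-Hochberg adjustment over all genes tested (threshold 0.05). The method was tested on simulated data. Positions and promoters came from RefSeq on GRCm38.p6, and 23151 symbols were current ones.

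The members and the 69 gene lists were chosen with earlier results of these data known. Named genes are the PDGF family, the 12 largest rises and 12 largest falls (passing the test, groups apart, mean of the higher one 5 FPKM or more), the 12 most variable genes among the 4 tumors, and per list the 6 strongest called members plus 2 called against the list median, or the 2 of smallest p where none passed. Predicted, small RNA and erythrocyte genes were left out of the first 3 choices. Of the 254 genes named, 28 stand outside that rule and were chosen after their values were seen: Anln, Aqp4, Bcas1, Cbx2, Cd3e, Cd8a, Cdh5, Cx3cr1, Egfr, Eif4a2, Etv1, Fosl1, Gabrg1, Gpr17, Gria2, Gria3, Gria4, Hk1, Ldhb, Npy, Pecam1, Prox1, Rps27, Spred2, Sv2c, Tmem119, Tnr and Xrcc3. Alternatives were another pseudocount, other filters, scalings, covariates and variance settings, only the groups compared, a replicate block, and each library left out in turn. Some genes are not reported here.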

Additional observations from a re-analysis of the deposited data

Results flagged for a closer look

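Dixon's test at the 95% level was applied to the 4 PDGFB tumors in 97 sets of values (the PDGF family, the 24 largest changes and the mean of each gene list), and chance marks about 1 in 20 such sets. It marked 5. Pbk, a mitotic kinase gene, stood at 91.6 FPKM in PDGFB tumor 2, above the other 3 tumors, which lay close together. The mitosis list had a mean log2(FPKM + 1) of 5.39 in the same tumor, again the highest. PDGFB tumor 4 was apart in the other 3 sets. Its mean over the oxidative phosphorylation list was 7.25, its mean over the B cell list 0.772 and its mean over the complement list 3.10, each the highest of the 4. All 3 tested B cell markers and 5 of the 17 complement genes passed the filter only with the NRAS tumors. The B cell mark rests on low values, with the list summing to 0.411, 0.509, 0.551 and 3.28 FPKM in PDGFB tumors 1 to 4.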

How the results depend on the processing

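The counts of the comparison with normal brain stayed within 1.5 times of 4240 higher and 4230 lower under every alternative but 1. That one added the title number series, a term set by the NRAS tumors alone, and gave 2463 higher and 2305 lower. What the series stands for cannot be told apart from tumor against normal. The replicate block gave 3914 higher and 3921 lower, and the replicate numbers in the titles do not pair the samples (same-numbered deviations correlated at -0.36, 0.16 and 0.0045). The labels match normal brain 3 to PDGFB tumor 1, whose deviations correlated at 0.13, and normal brain 1 to NRAS tumor 2, and 1 matched pair in each comparison allows no paired fit. Leaving out 1 library gave 3611 to 4286 higher and 3569 to 4248 lower. Rescaling without small RNA genes shifted the median of all genes by -0.12 on the log2 scale, and under it 3507 genes were higher and 4758 lower, with 40 oxidative phosphorylation genes lower in place of 18. Against NRAS tumors, 1774 genes were higher, with 1126 when only those 2 groups entered the fit and 1033 to 1980 without 1 library, lowest without PDGFB tumor 3 and 1154 without NRAS tumor 4, and 2078 were lower, with 1545 to 2266. Of the 254 genes named, 181 kept their direction and side of the threshold under every alternative, 50 changed with the title number series alone and 14 changed without 1 library. Beside those said above, the calls of Actl6b, Adam23, Aldoc, Camk2a, Car12, Cd55, Col3a1, Cx3cl1, Eif4a2, Eno2, Enpp2, Gabra3, Gfap, Gjb6, Grm2, Hapln1, Hapln2, Hk1, Kcnip2, Ldha, Ldhb, Mal, Mapt, Mog, Neu4, Notch1, Ntn1, Pcdhgc5, Pdgfd, Pfkm, Prpf40b, Slc16a3, Slc1a2, Slc2a5, Smo and Srsf12 were lost with the title number series. Without a filter on low values the calls of Gfap (adjusted p = 0.0638), Mal (0.0535), Mog (0.0538) and Pdgfd (0.0516) were lost as well. No named gene that passed the test changed sign. Among genes that did not pass it, the log2 fold change took the other sign with the title number series for Anln -0.0226, Cd3e -2.08, Cdh5 -0.54, Gabrg1 0.55, Gria2 0.26, Gria4 0.81, Igtp -0.41, Npy 0.21, Pdgfrb -0.0615, Pecam1 -0.71 and Rps27 2.94, with the replicate block for Cd3e -0.17, with sex as a covariate for Cd8a 0.16 and Eif2s3y 0.33, after rescaling without small RNA genes for Cdh5 -0.0412 and Xrcc3 -0.0257, and over the fits without 1 library for Aqp4 (-0.67 to 0.0108, reversed without PDGFB tumor 2), Cd8a (-0.0382 to 0.0301, reversed without normal brain 3), Cdh5 (-0.0411 to 0.16, reversed without normal brain 1) and Xrcc3 (-0.0336 to 0.21, reversed without normal brain 2). Of these reversals, those of Rps27 (adjusted p = 0.000419) and Pecam1 with the title number series passed the test. Pecam1 also passed, without reversal, with only the 2 groups compared (adjusted p 0.0114 to 0.0352 over both settings). Cd3e, near 0 FPKM in the tumors, passed in 1 of its 2 reversals (adjusted p 0.00885 and 0.807). The cause was not tested. The absolute depth is unknown and does not set an interval here, and the 4 and 3 libraries limit the precision.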
